A study of Mus musculus with 6 samples.

Results

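The genes described here are the core of the mouse Notch pathway, namely the receptors Notch1, Notch2, Notch3 and Notch4, the Jagged ligands Jag1 and Jag2, the Delta-like ligands Dll1, Dll3 and Dll4, and the target gene Hes1. They were chosen by name and not by a threshold on their values, and they are 10 of the 24063 gene symbols that were measured. All 10 passed the filter on low counts, Dll3 through the tumor samples alone, and each had 1 transcript in the data. RNA was sequenced from spontaneous penile tumors of 3 SA mice and from 3 samples of normal penile epithelium of WT mice. SA mice carried PB-Cre, Smad4L/L and ApcL/L, so that the Smad4 and Apc genes are deleted where Cre is active. This Cre line, PB-Cre4, is driven by an androgen-responsive probasin promoter that is active in prostate and penile epithelium. No carcinogen was given. WT mice were C57BL/6 and carried neither Cre nor floxed alleles. All mice were male and 5 months old. The strain background of the SA mice was not given in the sources used here, and the WT mice were not described as littermates. Both kinds of sample were bulk tissue, in which fewer cells of a type and less RNA per cell cannot be told apart.

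Notch receptors are cell surface proteins that are cut by ADAM proteases and then by the gamma-secretase complex when a ligand on a neighbouring cell binds and pulls on them. The released intracellular part enters the nucleus, joins the DNA-binding protein Rbpj and a Mastermind coactivator, and switches on Hes and Hey genes, which encode transcriptional repressors. In stratified epithelium the pathway is known for its part in the switch of keratinocytes from the basal layer to differentiation. Notch3 is also known from vascular smooth muscle and pericytes, and Notch4 and Dll4 from endothelium.

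Transcript levels are given as counts per 1e+06 counts (CPM) normalized by the TMM method, and differences as log2 fold changes of SA tumors over WT penises with their standard errors (SE) from edgeR's quasi-likelihood test. A gene is called upregulated or downregulated at an adjusted p under 0.01 over the 16336 genes tested. At this threshold 20.1% of all genes tested were upregulated and 17.5% were downregulated, or 3283 and 2865 genes. With counts scaled to library totals alone the split was 5248 and 1806 genes, and the median log2 fold change of all genes moved from 0.03 to 0.31. The study also required a change of 2 or more on the log2 scale, in either direction, and this left 9.41% of all genes upregulated and 3.59% downregulated. The gene counts of a sample summed to between 23828283 and 110509147, the highest being SA replicate 3, and a level of 3 counts corresponded to between 0.0244 and 0.137 CPM. These floors cover counting error only. Smad4 was measured at 36.1 to 46.1 CPM in SA tumors and at 61.2 to 72.5 CPM in WT penises. Apc was measured at 194 to 253 CPM and at 62.5 to 91.1 CPM. These are counts over whole transcripts and do not separate the deleted exons.

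Of the 10 Notch genes, 4 were downregulated in SA tumors (Dll1, Notch3, Jag2 and Notch2), 2 were upregulated (Dll3 and Notch4) and 4 were not called (Notch1, Jag1, Dll4 and Hes1). Their median log2 fold change was -0.25 against 0.03 for all genes tested, and their median change in size was 0.75 against 0.49. Under the study's second threshold 1 of the 10 was upregulated, Dll3, and 0 were downregulated, by edgeR or by DESeq2, while 5 lay lower at an unadjusted edgeR p under 0.05 with a change of any size. The levels of the groups did not overlap for 7 of the 10 genes, and for 63.4% of all genes tested. Read against the whole transcriptome, 2 of 10 upregulated and 7 of 10 not overlapping are close to the shares of all genes, and 4 of 10 downregulated is a larger share than 17.5% in a set of few genes. Summed over the 10 genes, the level was 971, 882 and 1070 CPM in SA tumors and 1180, 1530 and 1450 CPM in WT penises.

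**Figure D1:**
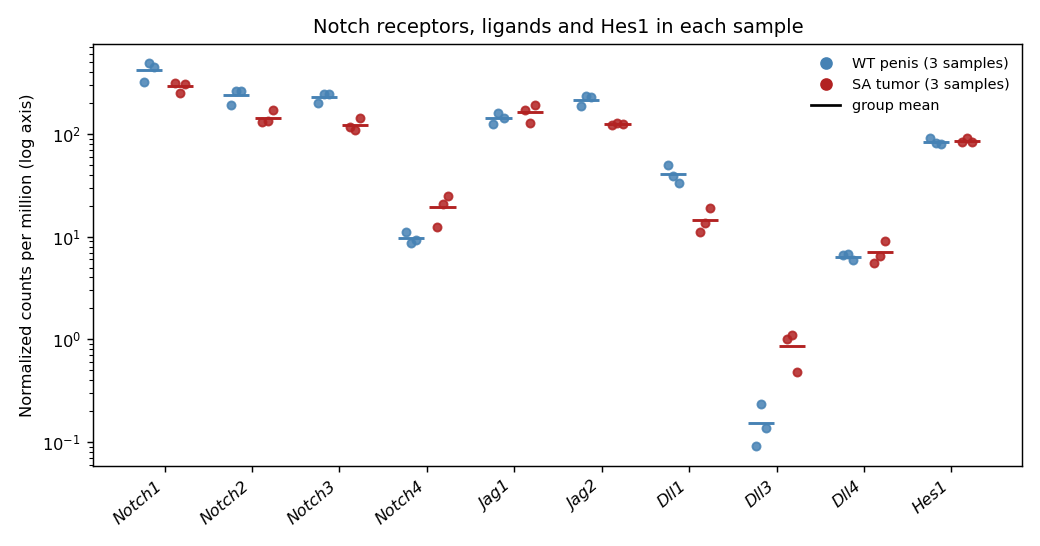
Normalized counts in CPM on a log axis for the 10 Notch genes in each of the 3 WT penises (blue) and 3 SA tumors (red), with a line at each group mean. Notch2, Notch3, Jag2 and Dll1 were lower in all 3 tumors, Notch4 and Dll3 were higher, and Hes1, Jag1 and Dll4 overlapped.

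Promoter windows of Notch3 and Notch4 are shown because these receptors changed in opposite directions in the same tumors. They are the 250 bases before the transcription start in RefSeq on GRCm38.p6, written 5′ to 3′ on the strand of the gene, with the matches to the N-box letters CACNAG (a sequence bound by Hes repressors) on either strand in capitals.
Notch3 (chr17:32166891-32167140, minus strand): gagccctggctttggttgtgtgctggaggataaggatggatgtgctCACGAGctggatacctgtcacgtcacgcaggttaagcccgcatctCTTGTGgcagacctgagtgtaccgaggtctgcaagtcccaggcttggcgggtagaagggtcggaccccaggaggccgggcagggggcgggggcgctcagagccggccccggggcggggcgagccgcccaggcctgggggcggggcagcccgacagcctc
Notch4 (chr17:34564045-34564294, plus strand): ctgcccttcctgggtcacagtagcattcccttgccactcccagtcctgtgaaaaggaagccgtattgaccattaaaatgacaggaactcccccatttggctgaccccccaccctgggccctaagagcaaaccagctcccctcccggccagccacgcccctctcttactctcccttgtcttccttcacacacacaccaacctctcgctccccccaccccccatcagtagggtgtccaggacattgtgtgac
The Notch3 window held 2 such matches, at 204 and 159 bases before the start, and the Notch4 window held 0. Windows were available for 9 of the 10 genes. Dll1 had 2 windows, and Notch1, Notch2 and Dll4 held 1 match each. Across all 32851 mouse promoter windows of this length, 36.7% held CACNAG. The other letters searched on both strands were GTGGGAA, bound by Rbpj, in 5.42% of all windows, the E-box CACGTG in 6.02%, and CTTTGAA and CTTTGAT, bound by Tcf and Lef1, in 4.46% and 3.21%. CTTTGAA and CTTTGAT differ only in the last letter, and no window of the Notch genes held any of these 4. A match is a run of letters and not a measured binding site.

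Of the receptors, Notch2 and Notch3 were downregulated in SA tumors and Notch4 was upregulated, while Notch1 was not called. Notch1 (NM_008714, chr2:26457902-26503822, GRCm38), the main receptor of keratinocytes, was measured at 315, 250 and 309 CPM in SA tumors and at 319, 490 and 448 CPM in WT penises. The groups were separated only by the 315 and 319 CPM of 1 sample each, and they overlapped in TPM. Its log2 fold change was -0.52 (SE 0.171, adjusted p = 0.0308), with a 95% interval from -0.92 to -0.13. Without WT replicate 1, the lowest WT sample, it was -0.70 (adjusted p = 0.00437) and was called.

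Notch2 (NM_010928, chr3:98013538-98150367) stood at 131, 133 and 170 CPM in SA tumors and at 190, 262 and 260 CPM in WT penises. All 3 tumors were below all 3 WT samples in CPM, and on the TPM scale SA replicate 3 (29.5) was above WT replicate 1 (23.2). The level was 1.64 times as high in WT penises, a log2 fold change of -0.71 (SE 0.158, adjusted p = 0.00541). The adjusted p was 0.0151 without SA replicate 1, 0.0246 without SA replicate 2, 0.0203 without WT replicate 2 and 0.0173 without WT replicate 3. With counts scaled to library totals it was 0.0583, at a log2 fold change of -0.43.

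Notch3 (NM_008716, chr17:32120820-32166896) fell further, from 199, 246 and 243 CPM in WT penises to 117, 110 and 143 CPM in SA tumors. All 3 tumors were below all 3 WT samples in CPM, while on the deposited TPM scale, set by library totals, SA replicate 3 (32.8) was just above WT replicate 1 (32.1). Its log2 fold change was -0.90 (SE 0.134, adjusted p = 0.000674), and it was called under all 15 alternatives tried, with changes between -1.02 and -0.61. The smooth muscle and pericyte markers moved with it. Of 10 such genes 7 were downregulated and 1 was upregulated, the median of the log2 fold changes was -2.70, and their summed level was 233 to 470 CPM in SA tumors and 1780 to 2290 CPM in WT penises. Acta2, the actin of smooth muscle, was at 19.0 to 48.3 CPM in SA tumors and 451 to 593 CPM in WT penises. The pericyte genes Pdgfrb and Rgs5 were at 86.9 to 206 CPM and 12.2 to 23.4 CPM in SA tumors, and at 72.2 to 78.5 CPM and 7.23 to 12.8 CPM in WT penises. These 2 genes were not called. In the same list Kcnj8 was upregulated (7.95 to 12.5 CPM in SA tumors, 2.84 to 5.47 CPM in WT penises). Cspg4 of that list was downregulated (31.9 to 35.1 CPM in SA tumors, 107 to 120 CPM in WT penises). In transcripts per 1e+06 transcripts (TPM), which account for transcript length, Notch3 came to 22.8, 14.1 and 14.3% of the summed smooth muscle and pericyte markers in SA tumors and to 3.84, 5.67 and 4.31% in WT penises. The part of these cells in the fall of Notch3 was not tested.

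Notch4 (NM_010929, chr17:34564286-34588543), a receptor of endothelial cells, rose from 11.0, 8.71 and 9.25 CPM in WT penises to 12.3, 20.6 and 24.9 CPM in SA tumors. The groups did not overlap, but SA replicate 1 lay close to the highest WT sample. The rise was 2.01-fold, a log2 fold change of 1.00 (SE 0.250, adjusted p = 0.00956), which is close to the threshold. The call was kept under 6 of 15 alternatives. The adjusted p was 0.0357 without SA replicate 2, 0.0245 without SA replicate 3, 0.0250 without WT replicate 1, 0.0459 without WT replicate 2 and 0.0405 without WT replicate 3, and limma-voom gave 0.0181. The change was never below 0.77. The endothelial markers were lower in sum in SA tumors. Of 10 such genes edgeR called 5 downregulated and 0 upregulated (0 also by DESeq2 and at an unadjusted p under 0.05), the median log2 fold change was -0.88, and their sum was 196 to 339 CPM in SA tumors and 392 to 464 CPM in WT penises. Cdh5, the cadherin of endothelial junctions, was at 43.5 to 59.6 CPM in SA tumors and at 46.7 to 54.6 CPM in WT penises. Set against the summed TPM of the endothelial markers, Notch4 came to 3.49, 4.98 and 4.21% in SA tumors and to 1.12, 0.977 and 1.22% in WT penises. The part of endothelial cells in the Notch4 level was not tested.

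**Figure D2:**
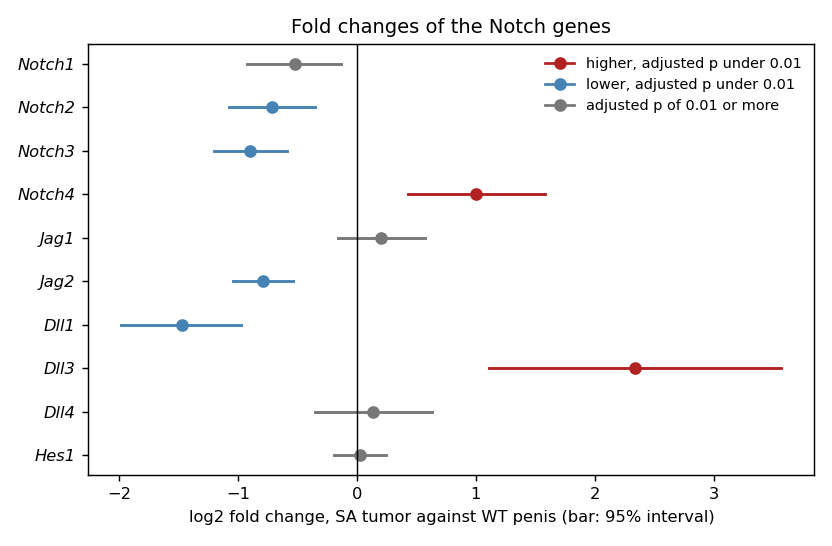
Log2 fold change of each Notch gene in SA tumors over WT penises (points) with its 95% interval (bars), colored by whether the adjusted p was under 0.01. Dll1 at -1.47 and Dll3 at 2.34 lie farthest from 0, and the intervals of Jag1, Dll4 and Hes1 cross 0.

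Among the Jagged ligands, which present to Notch on neighbouring cells, Jag2 fell and Jag1 was not called. Jag2 (NM_010588, chr12:112907803-112929812) was measured at 122, 129 and 125 CPM in SA tumors and at 186, 232 and 231 CPM in WT penises. The 3 tumors differed little among themselves (125 ± 3.23 CPM, SD, n = 3) and all lay below the WT samples. The log2 fold change was -0.79 (SE 0.110, adjusted p = 0.000469), and it stayed called under all 15 alternatives, at -0.90 to -0.51. Jag1 (NM_013822, chr2:137081451-137116520) was measured at 171, 129 and 192 CPM in SA tumors and at 125, 159 and 142 CPM in WT penises, and the groups overlapped. Its log2 fold change was 0.20 (SE 0.159, adjusted p = 0.311), with an interval from -0.16 to 0.57.

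The Delta-like ligands moved apart, with Dll1 downregulated, Dll3 upregulated and Dll4 not called. Dll1 (NM_007865, chr17:15367354-15376932), a transmembrane activator of Notch, was measured at 11.2, 13.5 and 18.9 CPM in SA tumors and at 49.6, 39.3 and 33.0 CPM in WT penises. No tumor came near the lowest WT sample. Its level was 2.77 times as high in WT penises (log2 fold change -1.47, SE 0.220, adjusted p = 0.000707), which was the largest fall among the 10 genes. It was called under all 15 alternatives, at -1.71 to -1.18. In the GENCODE annotation of GRCm38, 20.5% of the exon bases of Dll1 are shared with the lincRNA A930024N18Rik on the opposite strand, and the strand setting of the counting was not given in the sources used here.

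Basal and suprabasal keratinocyte markers were lower alongside Jag2 and Dll1. Of 7 basal markers 5 were downregulated, with a sum of 9710 to 12100 CPM in SA tumors and 21000 to 23000 CPM in WT penises, and of 10 suprabasal markers tested 8 were downregulated and 1 was upregulated, with a sum of 13700 to 20400 CPM and 53300 to 59400 CPM. Krt14, which defines basal keratinocytes, was at 5070 to 6660 CPM in SA tumors and 6530 to 9690 CPM in WT penises. Krt10, which defines suprabasal ones, was at 5080 to 8360 CPM and 23300 to 27100 CPM. Schwann cell markers also fell, 2 of 3, with a sum of 8.36 to 15.9 CPM in SA tumors and 106 to 138 CPM in WT penises. The part of these cells in the lower Jag2 and Dll1 levels was not tested.

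Dll3 (NM_007866, chr7:28293555-28301785), a ligand that does not activate Notch in neighbouring cells and inhibits it within the cell, was the lowest of the 10 genes. It had 27, 33 and 59 counts in SA tumors and 2, 7 and 3 counts in WT penises, or 1.00, 1.09 and 0.479 CPM and 0.0904, 0.234 and 0.137 CPM. The deepest library, SA replicate 3, gave the lowest tumor level, and the WT samples lay at or near the floor of 3 counts. Every WT sample had fewer than 10 counts, so Dll3 passed the filter on low counts through the tumors alone. Its test and its call thus depend on the group in which it was high. The rise was 5.06-fold (log2 fold change 2.34, SE 0.537, adjusted p = 0.00643), with a 95% interval from 1.11 to 3.57. The adjusted p was 0.0154 without SA replicate 1, 0.0225 without SA replicate 2, 0.0288 without WT replicate 1, 0.0130 without WT replicate 2 and 0.0257 without WT replicate 3, and limma-voom gave 0.0215. Hair follicle markers moved in the same direction. All 5 were upregulated, with a sum of 1120 to 2500 CPM in SA tumors and 18.3 to 24.0 CPM in WT penises. Krt25, Krt27, Krt71 and Lhx2 of this list had at most 14 counts in any WT sample. They too passed the filter on low counts through the tumors alone, and their calls depend on the group in which they were high. Krt71 of the inner root sheath was at 43.4, 76.2 and 15.8 CPM in the tumors, lowest in SA replicate 3, and Lhx2 of the same list was at 14.9, 13.1 and 16.8 CPM, highest there. The part of hair follicle cells in the Dll3 level was not tested.

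Dll4 (NM_019454, chr2:119325784-119335666), the Delta-like ligand of endothelium, was measured at 5.54, 6.52 and 8.99 CPM in SA tumors and at 6.55, 6.74 and 5.88 CPM in WT penises. The groups overlapped in CPM, and only SA replicate 3 was above all WT samples. On the deposited TPM scale, set by library totals, Dll4 was at 2.87, 3.23 and 4.75 in SA tumors. The WT penises were at 2.43, 2.73 and 2.46 TPM, without overlap. The log2 fold change was 0.14 (SE 0.214, adjusted p = 0.600), with an interval from -0.35 to 0.63. Against the summed TPM of the endothelial markers, Dll4 came to 3.01, 3.01 and 2.91% in SA tumors and to 1.28, 1.45 and 1.49% in WT penises. This ratio was higher in all 3 tumors, as for Notch4, while the markers it is divided by were lower in CPM sum. Of these markers 5 were downregulated, and Cdh5 and Kdr were not called (log2 fold changes -0.03 and 0.09). The part of endothelial cells in the Dll4 level was not tested.

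Hes1 (NM_008235, chr16:30065357-30067796), the repressor that is the best known direct target of Notch, was nearly level between the groups. It was measured at 83.8, 90.5 and 83.4 CPM in SA tumors and at 91.4, 81.5 and 80.0 CPM in WT penises. The 3 tumors lay inside the range of the WT samples. Its log2 fold change was 0.03 (SE 0.0953, adjusted p = 0.828), and the 95% interval from -0.19 to 0.25 was the narrowest of the 10 genes. With counts scaled to library totals the change was 0.31 (adjusted p = 0.0151), the same as the median of all genes on that scale. On the deposited TPM scale, which is also set by library totals, Hes1 was at 103, 107 and 105 in SA tumors and at 80.6, 78.3 and 79.6 in WT penises, without overlap.

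Levels were compared between genes on the TPM scale, which divides by transcript length. In SA tumors the order of the mean levels was Hes1 (105 ± 1.69 TPM), Jag2 (54.8 ± 1.14), Notch1 (54.6 ± 8.29), Jag1 (53.2 ± 12.0), Notch3 (27.6 ± 4.69), Notch2 (24.5 ± 4.35), Dll1 (7.54 ± 2.22), Notch4 (5.18 ± 1.78), Dll4 (3.62 ± 0.999) and Dll3 (0.699 ± 0.256; SD, n = 3 for each). Jag2, Notch1 and Jag1 overlapped as neighbours, and so did Notch3 with Notch2, Dll1 with Notch4 and Notch4 with Dll4. In WT penises the order was Hes1 (79.5 ± 1.14 TPM), Jag2 (73.6 ± 13.0), Notch1 (61.1 ± 15.7), Notch3 (39.8 ± 6.74), Jag1 (35.7 ± 5.86), Notch2 (31.2 ± 6.99), Dll1 (16.1 ± 2.32), Dll4 (2.54 ± 0.164), Notch4 (2.00 ± 0.145) and Dll3 (0.0985 ± 0.0490; SD, n = 3 for each). Here every neighbouring pair down to Jag1 and Notch2 overlapped, and none did from Notch2 and Dll1 on. These overlaps are between ranges over samples, and the order within a sample can be firmer. The range of Dll1 was apart from those of the endothelial genes in WT penises and overlapped that of Notch4 in SA tumors. Within each tumor Dll1 was still above Notch4 (5.86, 6.72 and 10.1 TPM against 3.32, 5.34 and 6.88 TPM). Notch3 was likewise above Notch2, and Notch4 above Dll4, in each tumor. Jag1 stood above Notch3 in all 3 tumors. In WT penises their ranges overlapped, with Jag1 below Notch3 in each sample (29.2, 40.5 and 37.4 TPM against 32.1, 43.3 and 44.2 TPM).

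Shares within a sample do not depend on how libraries are scaled to each other, and they were compared by two-sided exact permutation tests. With 3 samples against 3 the smallest p such a test can give is 0.10. Of 20 quantities tested 14 reached it, each a share or ratio with an adjusted p of 0.143, so none could pass 0.05. The 20 also include the summed receptor TPM and the summed ligand TPM, which do depend on the scaling of libraries. Among the receptors, Notch3 made up 23.6, 24.7 and 25.5% of the summed receptor TPM in SA tumors and 31.9, 28.5 and 29.4% in WT penises. Notch4 made up 2.98, 5.58 and 5.35% in SA tumors and 2.12, 1.21 and 1.35% in WT penises. Notch1 remained the largest receptor transcript in every sample, at 48.9% ± 3.93 in SA tumors against 45.2% ± 2.28 in WT (SD, n = 3, exact permutation p = 0.30).

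Among the ligands, Jag1 had a larger share in every SA tumor than in any WT penis. Jag1 made up 46.8, 38.1 and 47.2% of the summed ligand TPM in SA tumors and 26.8, 29.1 and 27.5% in WT penises. Jag2 made up 45.2, 51.6 and 41.6% in SA tumors and 53.9, 57.3 and 60.5% in WT penises, and was above Jag1 in all WT samples and in SA replicate 2. The ratio of Jag1 to Jag2 was 0.969 ± 0.207 in SA tumors against 0.486 ± 0.0280 in WT (SD, n = 3, exact permutation p = 0.10), with no overlap. Dll1 made up 6.25% ± 1.28 of ligand TPM in SA tumors and 12.9% ± 3.61 in WT penises, and Dll4 3.00% ± 0.562 and 2.00% ± 0.216. The ratio of Dll1 to Dll4 varied little among the tumors, at 2.04, 2.08 and 2.12, and was 7.62, 5.87 and 5.65 in WT penises. Summed ligand TPM over summed receptor TPM was 1.07 ± 0.0243 in SA tumors against 0.970 ± 0.0998 in WT (SD, n = 3, exact permutation p = 0.30), and these overlapped.

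**Figure D3:**
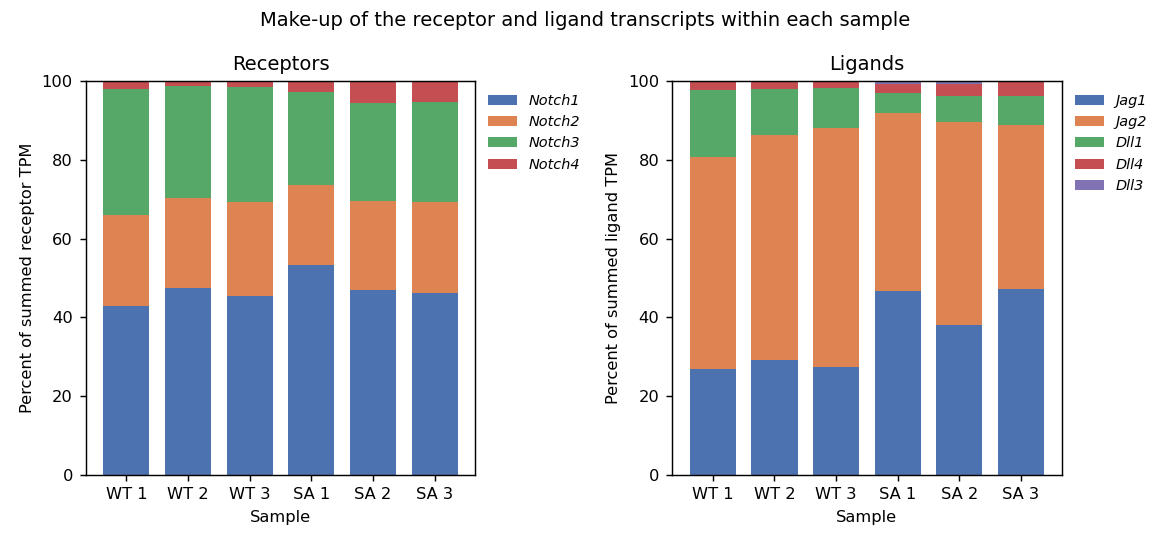
Share of each receptor in the summed receptor TPM (left) and of each ligand in the summed ligand TPM (right), in percent, for each WT penis and SA tumor. Jag1 takes 26.8 to 29.1% of the ligand bar in WT penises and 38.1 to 47.2% in SA tumors, and Dll1 takes a smaller share in every tumor.

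The rest of the pathway was read from lists of 61 genes sorted by role, of which 59 were tested. In SA tumors 13 were upregulated, 10 were downregulated and 36 were not called, against 20.1% and 17.5% of all genes tested, and their median log2 fold change was -0.06. With library totals alone 20 were upregulated. For each list up to 3 called genes with the largest change are named. The proteases and other proteins that cut the receptor gave 2 upregulated and 2 downregulated genes of 10. Adam17, a sheddase, fell from 147 ± 11.3 to 66.3 ± 9.03 CPM (log2 fold change -1.15, adjusted p = 0.000107). Adam10, the protease that makes the ligand-induced cut, rose from 98.9 ± 7.99 to 170 ± 21.4 CPM (log2 fold change 0.78, adjusted p = 0.000785). Furin, which cleaves the receptor precursor in the Golgi, rose from 122 ± 5.95 to 269 ± 13.7 CPM (log2 fold change 1.14, adjusted p = 2.55e-05; all SD, n = 3). These 3 kept their calls under all 15 alternatives. Of 5 glycosylation genes, including the Fringe genes, 0 were called by edgeR and 0 by DESeq2, and 1 had an unadjusted p under 0.05 in the edgeR test.

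Genes of endocytosis and ubiquitination, which act on ligands and receptors at the membrane, gave 3 upregulated and 4 downregulated genes of 14. Neurl1a, a ubiquitin ligase of the Neuralized family, was measured at 15.7, 19.8 and 12.7 CPM in SA tumors and at 1.45, 1.20 and 1.73 CPM in WT penises, a log2 fold change of 3.46 (SE 0.240, adjusted p = 1.18e-05). Of the Deltex genes, Dtx4 rose from 4.41 ± 0.586 to 15.8 ± 1.93 CPM (log2 fold change 1.84, adjusted p = 5.45e-05) and Dtx1 fell from 13.7 ± 0.468 to 4.53 ± 0.816 CPM (log2 fold change -1.58, adjusted p = 0.000134; SD, n = 3). Dtx2 was also downregulated (log2 fold change -0.87), and Dtx3 and Dtx3l were not called (log2 fold changes 0.13 and -0.06).

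In the nucleus, of 9 genes of the activation complex 1 was upregulated and 1 was downregulated, both of them Mastermind coactivators. Maml2 fell by 0.50 on the log2 scale (adjusted p = 0.00278) and Maml3 rose by 0.48 (adjusted p = 0.00398). Maml2 lost its call without WT replicate 2 or WT replicate 3 and with library totals (adjusted p up to 0.0868), and Maml3 lost it in 5 of 6 fits that left out 1 sample (adjusted p up to 0.0183). Rbpj was at 45.2 ± 4.56 CPM in SA tumors against 49.8 ± 1.62 CPM in WT (SD, n = 3), with a log2 fold change of -0.14 (adjusted p = 0.299, 95% interval -0.38 to 0.10) that was 0.15 with library totals. Of 8 corepressor genes 2 were upregulated. L3mbtl3, which binds Rbpj, rose from 14.4 ± 1.86 to 31.1 ± 5.26 CPM (SD, n = 3, log2 fold change 1.10, adjusted p = 0.000554).

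The other Hes, Hey and feedback genes ranged from a rise to a fall while Hes1 stayed level. Of 9 listed, 8 were tested, 4 were upregulated and 1 was downregulated, and the median of the log2 fold changes was 0.42. Hes6, which encodes an antagonist of Hes1, was measured at 136, 106 and 80.6 CPM in SA tumors and at 12.7, 11.9 and 16.0 CPM in WT penises. Every tumor was far above every WT sample, and the log2 fold change was 2.99 (SE 0.211, adjusted p = 1.38e-05). Hes5, another Notch target, had 32, 32 and 75 counts in SA tumors and 4, 2 and 0 counts in WT penises. Hes5 thus passed the filter on low counts through the tumors alone, and its call depends on the group in which it was high. Its log2 fold change was 3.45 (SE 0.682, adjusted p = 0.00299), and the adjusted p rose to at most 0.0176 without SA replicate 2 or WT replicate 2. Hes2 fell from 3.93, 5.31 and 4.51 CPM to 0.483, 0.397 and 0.341 CPM (log2 fold change -3.53, SE 0.285, adjusted p = 2.49e-05).

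The Hey genes and Nrarp, which the rule for naming genes does not cover, were added after their values were seen. Heyl, a target known from vascular smooth muscle, was measured at 12.0, 12.2 and 8.75 CPM in SA tumors and at 3.03, 1.80 and 1.59 CPM in WT penises (log2 fold change 2.36, SE 0.280, adjusted p = 0.000194). It rose while the smooth muscle and pericyte markers were lower in sum. Hey1 was at 10.1, 9.14 and 7.54 CPM in SA tumors and 5.29, 4.01 and 3.51 CPM in WT penises (log2 fold change 1.06, SE 0.215, adjusted p = 0.00341), and lost its call without SA replicate 2, WT replicate 2 or WT replicate 3 (adjusted p up to 0.0207). Hey2 was not called (log2 fold change -1.33, adjusted p = 0.0203). Nrarp, the feedback inhibitor that binds the Notch complex, was not called either, at 103 ± 14.0 CPM in SA tumors against 120 ± 4.66 CPM in WT (SD, n = 3, log2 fold change -0.22, adjusted p = 0.129), and its change was 0.06 with library totals. Hes3 was not tested, having at most 11 counts in any sample.

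**Figure D4:**
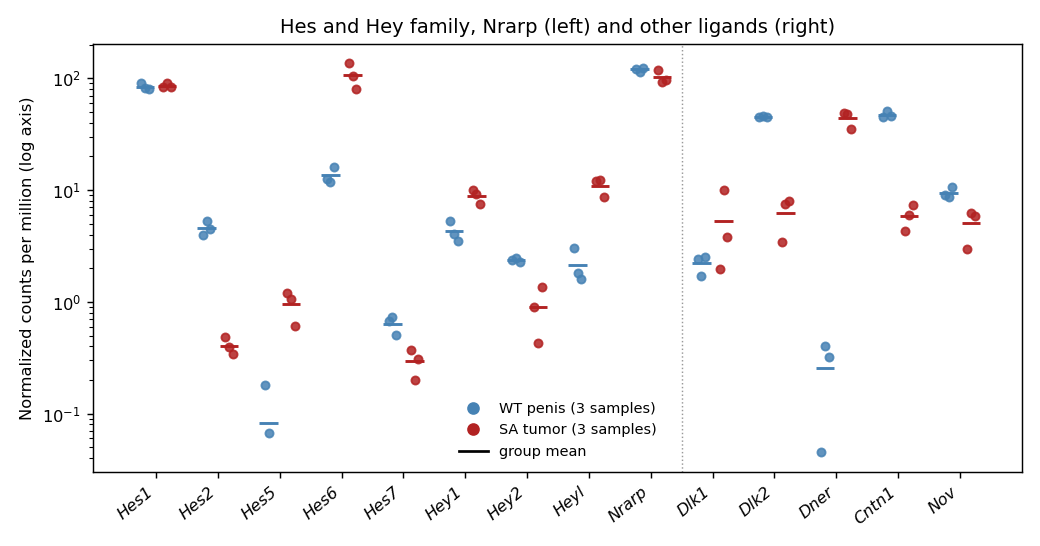
Normalized counts in CPM on a log axis for Hes1, the other tested Hes and Hey genes and Nrarp (left of the dotted line) and the other ligands (right) in each WT penis (blue) and SA tumor (red), with lines at group means. Hes1 and Nrarp lie near 100 CPM in both groups while Hes6, Heyl and Dner are higher in all 3 tumors. WT replicate 3 had 0 counts of Hes5 and is not drawn, since a log axis has no 0.

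The other ligands, which include the noncanonical Dlk and contactin genes, gave 1 upregulated and 2 downregulated genes of 5 tested. Dner, a Delta-like transmembrane protein known from neurons, showed the largest change of any gene in the pathway. It was measured at 49.0, 48.2 and 35.0 CPM in SA tumors and at 0.0452, 0.401 and 0.319 CPM in WT penises, where its counts were 1, 12 and 7. Dner thus passed the filter on low counts through the tumors alone, and its call depends on the group in which it was high. The log2 fold change was 7.35 (SE 0.369, adjusted p = 3.04e-06), and it was between 6.89 and 7.88 under all 15 alternatives. Cntn1, a contactin of nerve that can bind Notch, fell from 45.0, 50.6 and 46.1 CPM to 4.35, 6.03 and 7.29 CPM (log2 fold change -2.98, SE 0.188, adjusted p = 7.29e-06), beside the lower Schwann cell markers given above. Dlk2, a relative of Delta without the domain that binds Notch in activating ligands, fell from 44.9, 46.1 and 44.8 CPM to 3.42, 7.51 and 7.97 CPM (log2 fold change -2.82, SE 0.282, adjusted p = 0.000102). Cntn6 was not tested, having at most 2 counts in any sample.

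**Figure D5:**
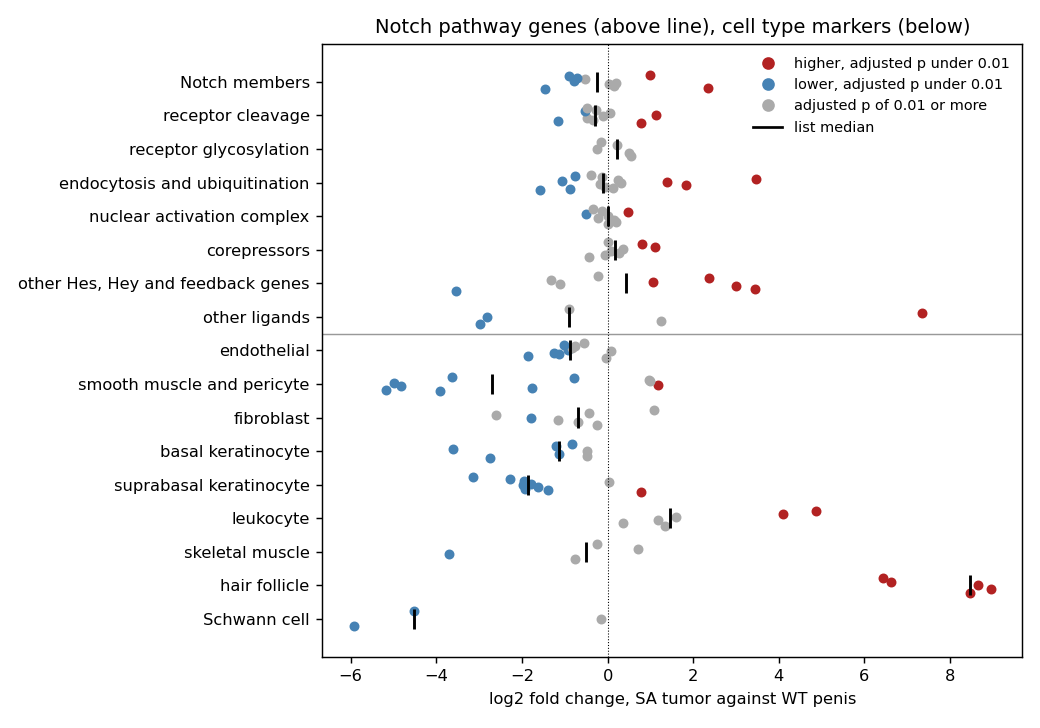
Log2 fold change of every tested gene in SA tumors over WT penises, by list, with the Notch genes and the pathway lists above the line and cell type markers below it; vertical bars are list medians. Most pathway genes lie near 0, the Notch genes have a median of -0.25, and the medians of marker lists run from -4.53 for Schwann cells to 8.46 for the hair follicle.

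Some leukocyte markers also moved between the groups. Of 6 tested, 2 were upregulated, S100a8 and S100a9, and the summed level was 1500 to 2580 CPM in SA tumors and 121 to 198 CPM in WT penises. Most of the sum in SA tumors came from S100a8 (582 to 1030 CPM) and S100a9 (803 to 1370 CPM). The others tested, Ptprc, Cd3e, Itgam and Csf1r, were not called. Fibroblast markers summed to 1290 to 4800 CPM in SA tumors and 6220 to 6520 CPM in WT penises, with 1 of 7 downregulated. Skeletal muscle markers summed to at most 8.62 CPM in SA tumors and 17.0 CPM in WT penises, 1 of 4 tested was downregulated, and Myh4 had 0 counts in every WT sample. The labelled epithelium was visible in both groups in Krt5, Krt14, Krt1 and Krt10, each at 3070 CPM or more in every sample. The part of these cell types in the levels of the Notch genes was not tested.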

How the data were processed

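Stranded paired-end libraries were made from the total RNA of 3 SA penile tumors and 3 WT penile epithelia. The paper describes alignment with Tophat on mm10 and gene counts from HTSeq, and names Basepair Tech as the depositor of the files. The deposited files hold raw counts per RefSeq transcript, with FPKM and TPM values computed from the same counts. Whether these are the HTSeq counts of the paper was not tested. Versions, the annotation release and the strand setting of HTSeq were not given in the sources used here. FPKM values served only to work out transcript lengths, and normalized CPM divided by this length was the alternative for the level order. The files held 33068 transcript rows, and a symbol with several rows was represented by the row with the highest mean count. Samples were grouped by the labels.

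The tests were run with edgeR 4.0.16 in R 4.3.3, by filterByExpr (minimum 10 counts, total 15), TMM scaling and the robust quasi-likelihood F-test, adjusted after Benjamini-Hochberg, without a block. The SE was the change divided by the square root of F, and intervals used the moderated degrees of freedom. The study gives 3 samples for each genotype, and p-values measure the spread between these samples. The fit was tested on simulated data. All members, up to 3 called genes of each pathway list by size of change, Smad4 and Apc were named. A gene that this rule covers is not reported here. The members and lists were chosen with earlier results of these data known, so they are no independent evidence. Promoter windows came from RefSeq (GRCm38.p6), and exon overlap from GENCODE M21. Flg of the suprabasal list was not matched. Alternatives were DESeq2 1.42.0, limma-voom (limma 3.58.1), 3 other scalings, 2 other filters, summed transcript rows, leaving out each sample, and the replicate number as a block. Figures were drawn with matplotlib 3.10.9.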

Additional observations from a re-analysis of the deposited data

How the results depend on the processing

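Dll1, Notch3 and Jag2 kept direction and call under all 15 alternatives tried, Notch2 kept its call in 10 of 15, Notch4 in 6 of 15 and Dll3 in 8 of 14. Jag1, Dll4 and Hes1 were called under none, and Notch1 only without WT replicate 1. Scaling by library totals moved the median log2 fold change of all genes from 0.03 to 0.31. It gave 5248 upregulated and 1806 downregulated genes in place of 3283 and 2865, 20 upregulated pathway genes in place of 13, and changes of 0.06 for Nrarp and 0.15 for Rbpj, both negative otherwise. A log2 fold change of at least 2 left 1537 and 587 genes, 1 and 0 of the 10 Notch genes, and 5 and 3 of the other pathway genes. Upregulated Notch genes, 2 with edgeR, were 0 with limma-voom, 0 with a filter at a mean of 50 counts, where Dll3 was removed, 1 with summed transcript rows, and 1 with the replicate block.

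With 1 sample left out, upregulated Notch genes were 0 to 1 and upregulated pathway genes 8 (without WT replicate 2) to 14. Dll4 ranged from -0.08 (without SA replicate 3) to 0.28, and Hes1 from -0.03 (without WT replicate 3) to 0.08, with -0.01 without SA replicate 2 and -0.02 without WT replicate 2. The cause of these shifts was not tested, and each of these fits also had fewer samples. The replicate block gave 2809 upregulated and 2446 downregulated genes and lost the call of Notch4 (log2 fold change 0.95, adjusted p = 0.0225 in edgeR), Maml2 and Maml3. Same-numbered samples deviated with correlations of -0.13, -0.10 and 0.02, and differently numbered samples with correlations from -0.15 to 0.21. With 3 samples a group, these values cannot settle whether the numbers pair the samples. With 3 samples a group, no exact test of a single value can pass 0.05, and Dll3 and Hes5 in WT penises are limited by counts near the floor of 3. Both passed the filter on low counts through the SA tumors alone, as did Dner and the hair follicle markers Krt25, Krt27, Krt71 and Lhx2.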
